A study of Mus musculus with 9 samples.

Results

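The genes described here encode the proteins of the cytosolic ribosome. They were chosen by gene symbol, as the Rps genes and Rpsa for the small subunit and the Rpl genes with Rplp0, Rplp1 and Rplp2 for the large subunit, and 76 of the 16921 genes in the RiboSeq data matched, 30 of the small and 46 of the large subunit. Among the genes that the symbol rule leaves out are Fau, Gnb2l1 (now named Rack1) and Rps3a1, which also encode ribosomal proteins and are given separately. RiboSeq counts ribosome-protected mRNA fragments (footprints) per gene and was performed on macrophages that all derived from cells without TTP, the RNA-binding protein encoded by Zfp36. The cells were bone marrow-derived macrophages of TTP-deficient mice, cultured from the femurs of young animals, grown for 10 days in 10 ng/ml M-CSF and immortalized with the oncogenes hcmyc and hRasG12V. CD11b- and F4/80-positive cells were then transduced with a tet-inducible vector for GFP, for GFP-TTP, or for GFP-TTP-AA, in which 2 serines of TTP are replaced by alanine (S52A and S178A) so that the kinase MK2 cannot phosphorylate them. All 3 groups received doxycycline (1 μg/ml) for 6 h and LPS (1 μg/ml) for 1 h, and each was represented by 3 libraries. As far as the labels say, each group is 1 transduced cell line, so that the line and the construct cannot be told apart. Footprints report ribosome-bound mRNA, so that more mRNA and more ribosomes per mRNA cannot be told apart in these values, and neither can fewer cells and less RNA per cell.

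A cytosolic ribosome carries a single copy of most of its proteins, and the small subunit reads the mRNA while the large subunit forms peptide bonds and holds the exit tunnel. Most mRNAs for these proteins begin with a 5′ terminal oligopyrimidine (TOP) tract, a C followed by further C and T bases, through which growth signals and the kinase mTOR control how many ribosomes they load. TTP binds AU-rich elements in 3′UTRs, with UAUUUAU as its preferred core, and recruits enzymes that shorten the poly(A) tail. Ribosomal protein mRNAs have short 3′UTRs and are long-lived, and many processed pseudogenes that resemble their coding sequences are scattered over the mouse genome.

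The start of the mRNA is shown first because the TOP tract is the regulatory sequence these genes are known for. RefSeq promoter sequences of build GRCm38.p6 were matched to 56 of the 76 members by symbol, and the other 20 include Rpl7, Rpl30 and Rps29. A run of at least 5 pyrimidines beginning with C, on the strand of the gene and starting within 5 bases of an annotated start, was found in 27 of these 56 genes (48.2%) and in 5718 of all 27025 genes in the same sequence set (21.2%). By subunit it was found in 11 of 22 small-subunit and 16 of 34 large-subunit genes. The windows below hold 10 bases before and 20 bases from the annotated start, with the run in capitals. Rpl15 is shown because its footprints rose in GFP-TTP macrophages. Rplp2, Rpl13a, Rps6 and Rps26 are shown for their roles, and Rpl18, Rps27 and Rps18 for their extreme values below. Rpsa and Rps16 are shown as members whose windows hold no such run.
Rpl15 (chr14:18270967-18270996, minus strand): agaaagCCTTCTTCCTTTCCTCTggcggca
Rplp2 (chr7:141447641-141447670, plus strand): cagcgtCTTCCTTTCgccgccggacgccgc
Rpl13a (chr7:45128726-45128755, minus strand): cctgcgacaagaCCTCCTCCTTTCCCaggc
Rpl18 (chr7:45718061-45718090, plus strand): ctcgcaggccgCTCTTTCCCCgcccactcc
Rps6 (chr4:86857348-86857377, minus strand): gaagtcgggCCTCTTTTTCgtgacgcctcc
Rps26 (chr10:128626487-128626516, minus strand): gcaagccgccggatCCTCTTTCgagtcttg
Rps27 (chr3:90213629-90213658, minus strand): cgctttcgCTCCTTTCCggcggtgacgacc
Rps18 (chr17:33955646-33955675, minus strand): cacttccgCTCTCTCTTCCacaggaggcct
Rpsa (chr9:120127756-120127785, plus strand): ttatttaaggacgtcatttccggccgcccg
Rps16 (chr7:28350679-28350708, plus strand): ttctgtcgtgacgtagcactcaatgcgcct
The run of Rpl15 was 17 bases long, and that of Rps6 was 10. A window without such a run says only that these letters are absent from it. A window with one does not show that the mRNA begins at the run.

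At the other end of the mRNA, a smaller share of the members than of the kept genes held the AU-rich letters searched for. In GENCODE vM21 on GRCm38 the annotated 3′UTR of the chosen transcript had a median of 68 bases over the 76 members and of 967 bases over 9862 kept genes. The letters ATTTA were present in 15 members (19.7%) and in 67.0% of the kept genes, and TATTTAT, which contains ATTTA, in 2 members (2.63%) and in 27.8% of the kept genes. A shorter 3′UTR has fewer places for these letters, and their rate per base was not compared. The search was on the mRNA strand. The 2 members were Rps16, with 3 overlapping copies, and Rps15a, with 1, and both sites lie in the 3′UTR.
Rps16 (chr7:28352830-28352859, plus strand): tgcttgctTATTTATTTATTTATttttact
Rps15a (chr7:118105421-118105450, minus strand): agattatggtttTATTTATgactatggtga
The annotated 3′UTRs that hold these sites are 516 bases long in Rps16 and 4728 bases long in Rps15a, and which 3′ end the macrophages use was not measured. Of the members whose footprints passed the test below, Rpl15 had 2 copies of ATTTA in an annotated 3′UTR of 1188 bases, and Rpl7, Rpl30 and Rps29 had none in 66, 45 and 91 bases.

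The deposited values are fitted values of the authors' DESeq2 model and not observed counts. The ratio between groups is therefore the same in replicates 1, 2 and 3, and the spread between replicates is not in the values. Errors are the standard errors (SE) of the authors' model. Whether groups overlap across libraries follows from these fitted terms and is no separate evidence. Levels below are fitted footprints divided by the size factor of the library, which ranged from 0.413 to 2.15. The sum of a library ran from 2570290 to 12804500 fitted footprints. For Zfp36 the level was 459 in GFP, 926 in GFP-TTP and 1536 in the AA macrophages. Zfp36 rose by 1.01 (adjusted p = 0.00492) in GFP-TTP against GFP and by 1.74 (adjusted p = 2.33e-09) in GFP-TTP-AA against GFP on the log2 scale. It also rose by 0.73 (adjusted p = 0.0385) in GFP-TTP-AA against GFP-TTP, and the part of this difference in the results below was not tested. The SE of Zfp36 was 0.25 in each comparison, close to the largest over all genes. As for the members with such an SE below, shrinkage in the authors' model pulls these values towards 0. With a level of 459, the libraries labelled as GFP in TTP-deficient cells also hold footprints assigned to Zfp36. This level does not by itself bear out the deficiency, and 1 value per gene does not show where on the gene the footprints lie. All 8 macrophage markers examined (Itgam, Emr1, Csf1r, Cd14, Cd68, Lyz2, Spi1 and Ptprc) were present, with fitted means between 2465 and 60749, and the fibroblast collagens Col1a1 and Col1a2 and the epithelial keratin Krt8 lay below 1. Dcn, Cd3e, Epcam, Ly6g and Elane were not analysed here. Of the 8 macrophage markers, 4 passed the test described below in at least 1 comparison, and not all in the same direction. Of all genes tested 2.09% passed in GFP-TTP against GFP, 3.03% in GFP-TTP-AA against GFP and 10.2% in GFP-TTP-AA against GFP-TTP. Of the 1279 genes whose mean fitted value reached 1000, 3.13%, 4.14% and 17.4% passed. The share of genes passing in at least 1 comparison was not computed. Emr1 fell by 0.68 (adjusted p = 0.00264) and Lyz2 fell by 0.48 (adjusted p = 0.00593) in GFP-TTP against GFP, on the log2 scale. Against GFP-TTP, the AA macrophages were higher in 3 markers and lower in 1, beside 5.66% and 4.58% of all genes tested. Emr1 rose by 1.22, Lyz2 by 0.64 and Spi1 by 0.36 (adjusted p = 0.0233), and Ptprc fell by 0.44 (adjusted p = 0.0216). Emr1 also rose by 0.54 (adjusted p = 0.0285) in GFP-TTP-AA against GFP. Their part in the results below was not tested.

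Of the 76 ribosomal protein genes, 4 passed the test in at least 1 comparison between the groups. In GFP-TTP against GFP macrophages Rpl7, Rpl30 and Rpl15 rose and no member fell. In GFP-TTP-AA against GFP-TTP macrophages Rpl7 and Rpl30 fell and Rps29 rose. No member passed the test in GFP-TTP-AA against GFP. The test was a two-sided Wald test on the fold change and its SE, with Benjamini-Hochberg adjustment over all genes tested and a threshold of 0.05. In GFP-TTP against GFP 3 of 76 members passed (3.95%), beside 2.09% of the 9938 genes tested and 3.13% of the 1279 genes whose mean fitted value reached 1000. All 3 were higher, beside 0.805% of the genes tested, and 0 were lower, beside 1.29%. At an unadjusted p under 0.05 there were 7 members (9.21%), beside 11.3% of the genes tested. In GFP-TTP-AA against GFP 0 of 76 members passed, beside 3.03% of 10103 genes (1.76% higher and 1.27% lower) and 4.14% of the 1279 genes of high fitted mean, and 6 members had an unadjusted p under 0.05 (7.89%) beside 14.2% of all genes tested. In GFP-TTP-AA against GFP-TTP 3 of 76 members passed (3.95%), beside 10.2% of 10103 genes and 17.4% of the 1279 genes of high fitted mean. Of these members 1 was higher, beside 5.66% of the genes tested, and 2 were lower, beside 4.58%. At an unadjusted p under 0.05 there were 9 (11.8%), beside 22.1%. The comparisons share libraries, so that they are not independent of each other.

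**Figure D1:**
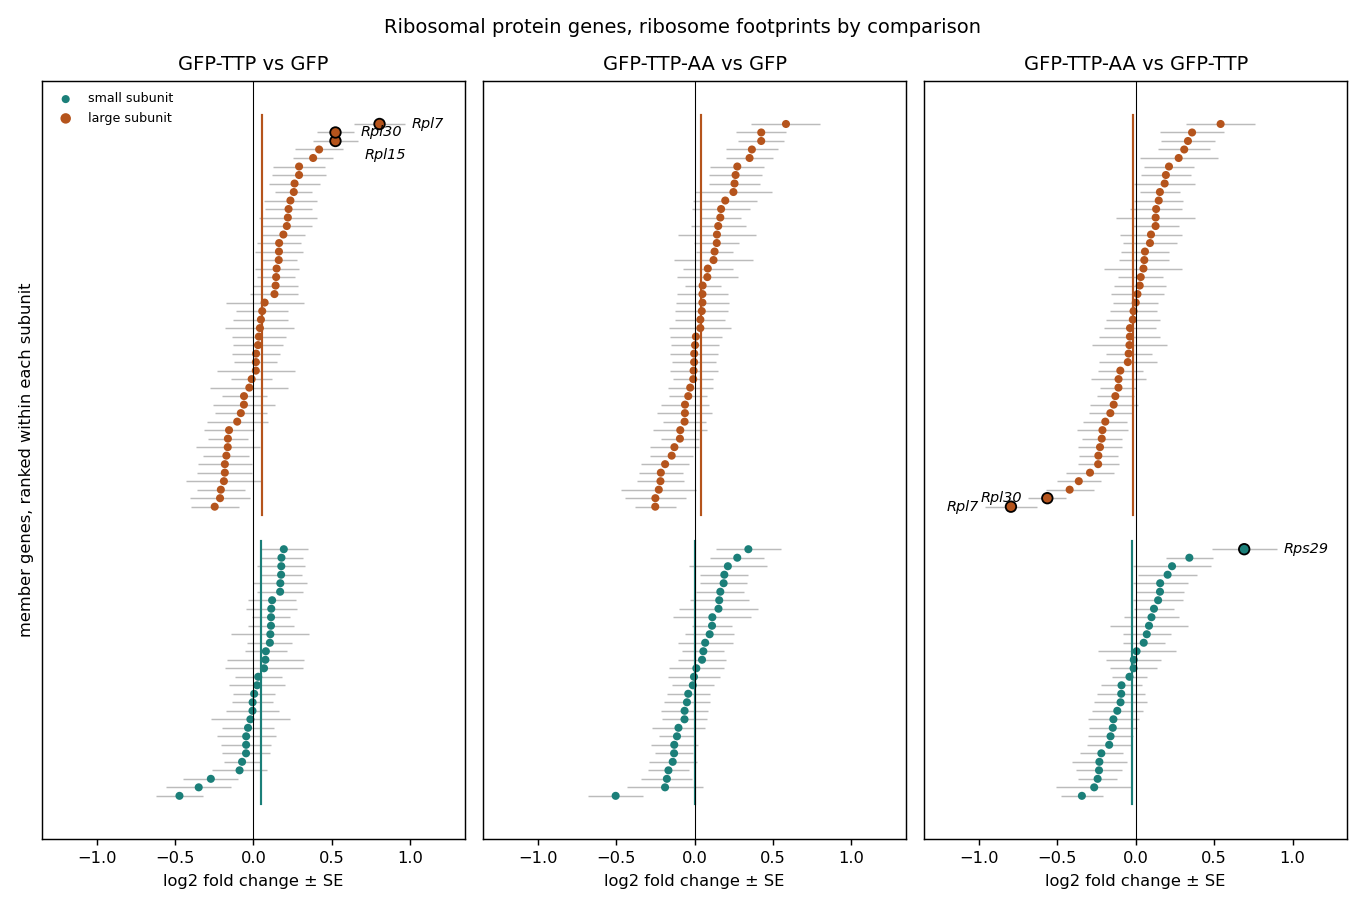
Log2 fold change of each ribosomal protein gene with its SE (horizontal bars), 1 panel per comparison, ranked within the small and the large subunit. Large named points passed the test, coloured vertical lines are the subunit medians, and the medians lie between -0.03 and 0.05 in every panel.

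Rpl7, which encodes a large-subunit protein, had the largest fold change of the 76 members in GFP-TTP against GFP (gene on chr1:16101295-16104662, minus strand). Its level in GFP macrophages was 2711, 3211 and 4171 in replicates 1, 2 and 3. In GFP-TTP macrophages it was 4732, 5604 and 7280. In GFP-TTP-AA macrophages it was 2727, 3230 and 4195. The GFP-TTP libraries were the highest within each replicate number, and across replicate numbers the group ranges of GFP-TTP and of both other groups did not overlap. On the log2 scale the change was 0.80 (SE 0.16, adjusted p = 0.000170, 3 libraries per group) in GFP-TTP against GFP and -0.80 (SE 0.16, adjusted p = 6.25e-05) in GFP-TTP-AA against GFP-TTP. GFP-TTP-AA and GFP differed by 0.01, with a 95% interval from -0.31 to 0.33. Over the 7 other kept genes within 1 Mb of Rpl7 the same comparison of GFP-TTP gave a median of -0.11, between -0.51 and 0.16. Of the coding 30-base words of Rpl7, 11.0% occur nowhere else in the genome, so that a read of any other word has at least 1 more place.

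Rpl30, whose product lies on the large subunit's face towards the small subunit, had the same order of groups (chr15:34440505-34443640, minus strand). In GFP macrophages the level was 4120, 4442 and 5137 in replicates 1, 2 and 3. In GFP-TTP macrophages it was 5920, 6382 and 7381. The GFP-TTP-AA libraries had 4007, 4320 and 4996. All 3 GFP-TTP libraries were above all libraries of the other groups. The difference was 0.52 (SE 0.12, adjusted p = 0.00183) in GFP-TTP against GFP and -0.56 (SE 0.12, adjusted p = 0.000147) in GFP-TTP-AA against GFP-TTP, on the log2 scale. GFP-TTP-AA against GFP gave -0.04 with a 95% interval from -0.28 to 0.20. The 8 kept genes within 1 Mb had a median of 0.16 in GFP-TTP against GFP, between -2.18 and 0.43. Exons of another gene, D730044K07Rik, cover 6.09% of the coding bases, and 9.49% of the 30-base words are unique.

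Rpl15, a large-subunit protein whose gene has the pyrimidine run shown above, was higher in GFP-TTP than in GFP. Its levels in replicates 1, 2 and 3 were 936, 1127 and 1447 in GFP macrophages. The GFP-TTP libraries had 1345, 1619 and 2079, and the GFP-TTP-AA libraries 1257, 1513 and 1943. Within each replicate number GFP was the lowest, and the ranges of the groups overlapped across replicate numbers. Rpl15 rose by 0.52 (SE 0.15, adjusted p = 0.0211) in GFP-TTP against GFP on the log2 scale. GFP-TTP-AA against GFP gave 0.42 (SE 0.15, adjusted p = 0.0818), which did not pass. GFP-TTP-AA and GFP-TTP differed by -0.10, with a 95% interval from -0.38 to 0.19. None of the 30-base words of Rpl15 is unique, and a word had a median of 9 other places.

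Rps29, one of the shortest small-subunit proteins (56 codons), followed another order (chr12:69157722-69159186, minus strand). The levels in GFP macrophages were 654, 662 and 855 in replicates 1, 2 and 3. GFP-TTP macrophages had 513, 520 and 671, and GFP-TTP-AA macrophages 829, 839 and 1084. GFP-TTP was the lowest and GFP-TTP-AA the highest within each replicate number, and the ranges of these 2 groups did not overlap. The log2 fold change was 0.69 (SE 0.21, adjusted p = 0.0137) in GFP-TTP-AA against GFP-TTP. With the median of chromosome 12, which was 0.11 over the 348 other genes, subtracted, it was 0.58 with adjusted p = 0.0571 and did not pass. Rps29 had -0.35 (adjusted p = 0.554) in GFP-TTP against GFP and 0.34 (adjusted p = 0.484) in GFP-TTP-AA against GFP. None of its 30-base words is unique.

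**Figure D2:**
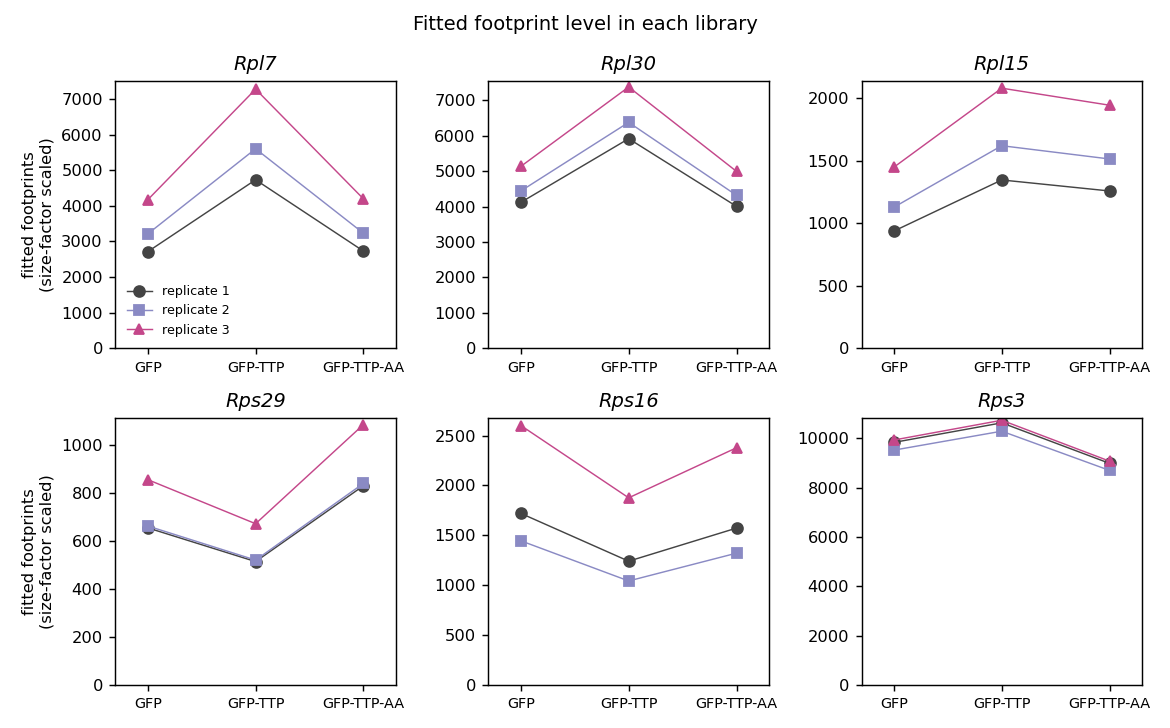
Fitted footprints divided by the library size factor (vertical axes, from 0) in the 9 libraries for the 4 members that passed a test and for Rps16 and Rps3, with 1 line per replicate number. Rpl7 and Rpl30 are highest in GFP-TTP, Rps29 and Rps16 are lowest there, and the lines of a gene have the same shape because the values are fitted.

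Rps16, a protein of the small-subunit head whose 3′UTR holds the TATTTAT copies shown above, had the lowest value of the small subunit in GFP-TTP against GFP and did not pass. The levels in replicates 1, 2 and 3 were 1719, 1444 and 2600 in GFP, 1240, 1041 and 1875 in GFP-TTP, and 1572, 1320 and 2377 in GFP-TTP-AA. GFP-TTP was the lowest within each replicate number, and the group ranges overlapped. The log2 difference was -0.47 (SE 0.15, adjusted p = 0.0745) in GFP-TTP against GFP. With the 3 comparisons adjusted together the adjusted p was 0.0410. GFP-TTP-AA against GFP-TTP gave 0.34 (SE 0.15, adjusted p = 0.145), and GFP-TTP-AA against GFP gave -0.13 (SE 0.15, adjusted p = 0.802). Rps15a, the other member with TATTTAT, had levels of 1167, 742 and 1079 in GFP, 1171, 744 and 1082 in GFP-TTP, and 1213, 771 and 1121 in GFP-TTP-AA. These groups overlapped, and its log2 differences were 0.00 (SE 0.14), 0.06 (SE 0.14) and 0.05 (SE 0.14) in GFP-TTP against GFP, GFP-TTP-AA against GFP and GFP-TTP-AA against GFP-TTP.

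A few other members lay near the threshold. Rps27, a zinc-finger protein of the small subunit, had -0.50 (SE 0.18, adjusted p = 0.0885) in GFP-TTP-AA against GFP. Its levels were 544, 426 and 651 in GFP and 384, 300 and 459 in GFP-TTP-AA, and the ranges overlapped. In GFP-TTP-AA against GFP-TTP Rpl23a, which lies at the exit of the peptide tunnel, had -0.42 (SE 0.15, adjusted p = 0.0571). Rpl23 had -0.36 (SE 0.14, adjusted p = 0.0811), and Rps14 had -0.34 (SE 0.13, adjusted p = 0.0816). Exons of Tlcd1 cover 55.3% of the coding bases of Rpl23a. Rpl18 had the highest value of the large subunit in both comparisons of GFP-TTP-AA, 0.58 (SE 0.22, adjusted p = 0.133) against GFP and 0.54 (SE 0.22, adjusted p = 0.101) against GFP-TTP. Rpl22, whose paralog is Rpl22l1, had 0.43 (SE 0.16, adjusted p = 0.130) in GFP-TTP-AA against GFP.

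Other members at the ends of each subunit's ranking did not pass either. In GFP-TTP against GFP the highest small-subunit values were 0.19 for Rps25, 0.18 for Rps9 and 0.18 for Rpsa, and low large-subunit values were -0.25 for Rpl34 and -0.21 for Rpl12. In GFP-TTP-AA against GFP the small subunit ended with 0.27 for Rps7 and 0.21 for Rps12 above, and with -0.19 for Rps18 and -0.18 for Rps24 below. Low large-subunit values there were -0.25 for Rpl8 and -0.23 for Rpl24. In GFP-TTP-AA against GFP-TTP Rpl27a stood at 0.36, Rplp1 at 0.33 and Rps12 at 0.23.

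The small and the large subunit had nearly the same medians. For GFP-TTP against GFP each subunit had a median log2 difference of 0.05, beside 0.00 over all genes tested and 0.04 over the 1279 genes of high fitted mean. The small-subunit members ranged from -0.47 to 0.19 and the large-subunit members from -0.25 to 0.80. In GFP-TTP-AA against GFP the medians were 0.00 and 0.04, beside 0.01 for all genes, with 15 of 30 small-subunit and 27 of 46 large-subunit members above 0. Between GFP-TTP-AA and GFP-TTP they were -0.03 and -0.02, beside 0.01 for all genes. The number of passing members was 0 and 3 in the first comparison, 0 and 0 in the next and 1 and 2 in the last, for the small and the large subunit. In the first comparison these were 0% of 30 and 6.52% of 46 members, beside 2.09% of all genes tested. In the next 3.03% of all genes tested passed. In the last the shares were 3.33% and 4.35%, beside 10.2%. The difference between the subunits was not tested. Without the 53 members that have a named pseudogene, the large-subunit median was 0.15 in GFP-TTP against GFP and -0.11 in GFP-TTP-AA against GFP-TTP, and the small-subunit median 0.11 and -0.10.

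The intervals describe shrunken fold changes. The SE of the members ran from 0.11 to 0.25 in GFP-TTP against GFP. The 95% interval lay wholly between -1 and 1 on the log2 scale in 75 of 76 members in GFP-TTP against GFP, in 75 in GFP-TTP-AA against GFP and in 74 in GFP-TTP-AA against GFP-TTP. It lay wholly between -0.5 and 0.5 in 46, 51 and 50 members. Shrinkage in the authors' model pulls both the values and the intervals towards 0, so that these counts set no limit on the change before shrinkage. This holds most for 7 members (Rpl11, Rpl29, Rpl35, Rps12, Rps18, Rps23 and Rps6) whose SE lay within 0.01 of the largest over all genes, 0.25, as did 14.7% of the genes tested in GFP-TTP against GFP. The level was highest in GFP-TTP for 32 members, in GFP-TTP-AA for 29 and in GFP for 15.

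By role, the sets held between 1 and 10 members, and a count over so few is given as a description. The stalk proteins Rplp0, Rplp1, Rplp2 and Rpl12, which recruit the translation factors, had values between -0.21 and 0.02 in GFP-TTP against GFP. In GFP-TTP-AA against GFP-TTP they lay between -0.01 and 0.33. In these comparisons 0 of 4 passed, beside 2.09% and 10.2% of all genes tested. Rpl5 and Rpl11 travel with the 5S rRNA and can bind Mdm2. Rpl5 had 0.38 (SE 0.13, adjusted p = 0.105) and Rpl11 -0.03 (SE 0.25, adjusted p = 0.984) in GFP-TTP against GFP. Rpl3 and Rpl10, which lie near the site of peptide bond formation, had 0.29 and 0.03 there. The 8 members at the tunnel and its exit had a median of 0.01 in GFP-TTP against GFP and 0.00 in GFP-TTP-AA against GFP-TTP.

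Among small-subunit roles, the mRNA entry protein Rps3 is one of the members most distinct in sequence, with 80.0% of its words unique. Its levels in replicates 1, 2 and 3 were 9835, 9522 and 9933 in GFP, 10629, 10291 and 10735 in GFP-TTP, and 8984, 8698 and 9074 in GFP-TTP-AA. The groups did not overlap, and the differences were small, 0.11 (SE 0.12, adjusted p = 0.813) in GFP-TTP against GFP and -0.24 (SE 0.12, adjusted p = 0.220) in GFP-TTP-AA against GFP-TTP. Rps6, the substrate of S6 kinase, had 0.11 (SE 0.25) in GFP-TTP against GFP and 0.01 (SE 0.25) in GFP-TTP-AA against GFP-TTP. Rps19, a protein mutated in Diamond-Blackfan anaemia, had 0.02 and -0.01 in the same comparisons, and Rps26 at the mRNA exit had -0.05 and 0.20. At the decoding centre, Rps15 had 0.03 and Rps23 had 0.07 in GFP-TTP against GFP. The 4 platform proteins Rpsa, Rps14, Rps26 and Rps28 had a median of 0.15 in GFP-TTP against GFP. Of these 0 passed there, beside 2.09% of all genes tested.

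Rps27a, which is made as a fusion with ubiquitin, had 0.11 (SE 0.14) in GFP-TTP against GFP and -0.16 (SE 0.14) in GFP-TTP-AA against GFP-TTP. Rpl13a, known outside the ribosome as part of the GAIT complex of interferon-treated myeloid cells, had 0.14 (SE 0.12) and -0.24 (SE 0.12, adjusted p = 0.235), and exons of other genes cover 97.5% of its coding bases. The 10 members of the small-subunit head had a median of -0.03 in both comparisons with GFP-TTP, and 1 of the 10 passed in GFP-TTP-AA against GFP-TTP (Rps29), a share of 10.0% beside 10.2% of all genes tested.

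Together the members took 3.60% to 4.60% of all fitted footprints of a library. The share was 3.75%, 3.61% and 4.36% in GFP replicates 1, 2 and 3, and 3.94%, 3.83% and 4.60% in the GFP-TTP libraries. In the GFP-TTP-AA libraries it was 3.71%, 3.60% and 4.31%. The means were 3.90% ± 0.40 (SD, n = 3), 4.12% ± 0.42 (SD, n = 3) and 3.87% ± 0.39 (SD, n = 3) over the replicate numbers. These SDs come from replicate terms that the 3 groups share and do not measure the spread within a group. Within each replicate number GFP-TTP had the highest share and GFP-TTP-AA the lowest. Because the values are fitted, the order repeats between replicate numbers, and the difference in share was not tested. The small subunit took 0.682 to 0.752 times the share of the large subunit. The share in replicate 3 lay between 4.31% and 4.60%, above every library of replicates 1 and 2, which lay between 3.60% and 3.94%.

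**Figure D3:**
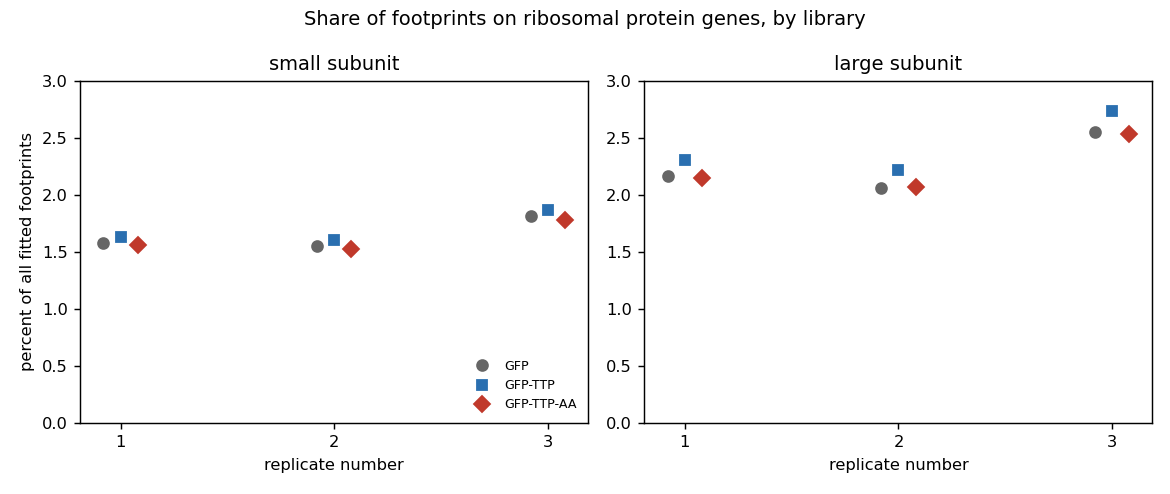
Percent of all fitted footprints on small-subunit (left) and large-subunit genes (right) by replicate number, 1 point per library, with the groups shown by colour and shape and the vertical axes from 0. In both panels the 3 libraries of replicate 3 are the highest.

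Most members had a wider range over replicate numbers than over groups in these fitted values. The replicate number is taken here to stand for the library date in the authors' model, a date the labels do not give. Averaged over the groups, the level in replicate 3 over replicate 1 had a median of 0.28 on the log2 scale over the 76 members, and 58 of them were higher in replicate 3. The median over all 10103 kept genes was 0.02, with 5406 higher in replicate 3, and over the 1279 genes of high fitted mean also 0.02. Replicate 3 over replicate 2 had a median of 0.33 over the members, with 62 higher, beside 0.01 over the 10103 kept genes, with 5149 higher. Replicate 2 over replicate 1 had a median of 0.01 over the members. Both subunits took part, with 0.30 over the small-subunit and 0.26 over the large-subunit members for replicate 3 over replicate 1. The range over replicate numbers was wider than the range over groups in 64 of 76 members, with medians of 0.47 and 0.21. These ranges were not computed over all kept genes, so that they are not known to be particular to the members. How far the authors' model shrinks the replicate terms is not known and may differ from the group terms, so that the ranges may not be directly comparable. Single members differed widely. Rpl18 stood at 1.31, Rps26 at 1.22 and Rps27a at 0.92 for replicate 3 over replicate 1, and Rps24 stood at -0.67. Rps3 was nearly level at 0.01. The 13 other TOP mRNAs examined had a median of 0.19, and the 30 ribosome biogenesis genes 0.12. No SE of the replicate terms is in the files used here, and the part of the library date in these shifts was not tested. Since each replicate number holds all 3 groups and is a term in the authors' model, the fold changes between groups do not contain it.

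**Figure D4:**
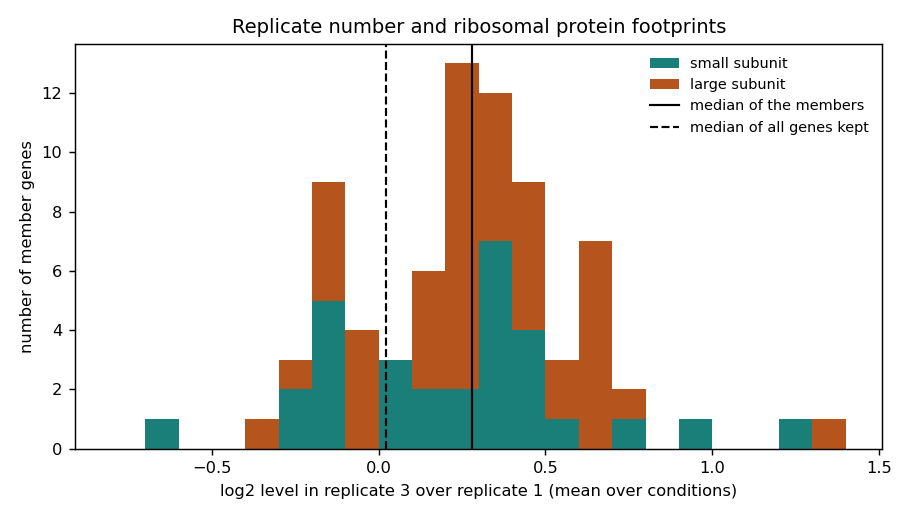
Number of ribosomal protein genes (vertical axis) by log2 level in replicate 3 over replicate 1, averaged over the groups (horizontal axis, bins of 0.1, subunits stacked). The solid line is the members' median of 0.28, and the dashed line is the median of all kept genes, 0.02.

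Since each ribosome holds its proteins in nearly equal numbers, the footprints per codon can be set beside each other, and they spread widely. All 76 members passed the minimum fitted mean of 10. Fitted footprints per codon, averaged over the 9 libraries, had a median of 13.3 over the members, with quartiles at 8.39 and 21.98. The median was 13.7 for the small and 12.9 for the large subunit. The lowest values were 0.0841 for Rps18, 0.504 for Rpl24 and 1.99 for Rpl18, and in the small subunit Rps2 followed with 3.49 and Rps27 with 5.43. The highest were 182 for Rpl41, 104.9 for Rps21, 81.1 for Rpl23, 66.6 for Rps20, 61.8 for Rps9 and 51.4 for Rpl8. Rpl41 has only 25 codons. In the large subunit Rpl10a was the next lowest with 5.63. Rps18 had a fitted mean of 12.8 footprints in all and a fold change of -0.26 (SE 0.24) in GFP-TTP-AA against GFP-TTP, so that its values carry little information.

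Members with more distinctive sequences had more footprints per codon. Of the coding words of 30 bases, about the size of a footprint, a median of 2.3% per member occur nowhere else in the GRCm38 genome, and 32 members have none. The 32 members without a unique word had a median of 10.0 footprints per codon, the 40 members with some but under 50% unique had 16.3, and the 4 members with at least 50% had 38.6. The 4 members lay close together, between 30.3 and 51.4 footprints per codon, and include Rpl4 (59.5% unique), Rps3 (80.0%) and Rpl8 (88.7%). Spearman's rho between unique words and footprints per codon was 0.43 across the 76 genes, which share libraries and are not independent. Footprints per codon had a rho of -0.39 with the number of codons, also across genes. TopHat was set to report up to 2 alignments per read, and how reads with several places were counted is not given in the sources used here. Coding bases also lie under exons of another gene in 8 members. In Rpl24 exons of Gm28037 cover 83.4% and in Rps10 exons of RPS10-NUDT3 cover 92.1%. These overlaps and those given above are from GENCODE vM21. The paper's methods name another annotation of the same build, and whether it holds these exons was not examined. The strand setting of the counting is not given in the sources used here.

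**Figure D5:**
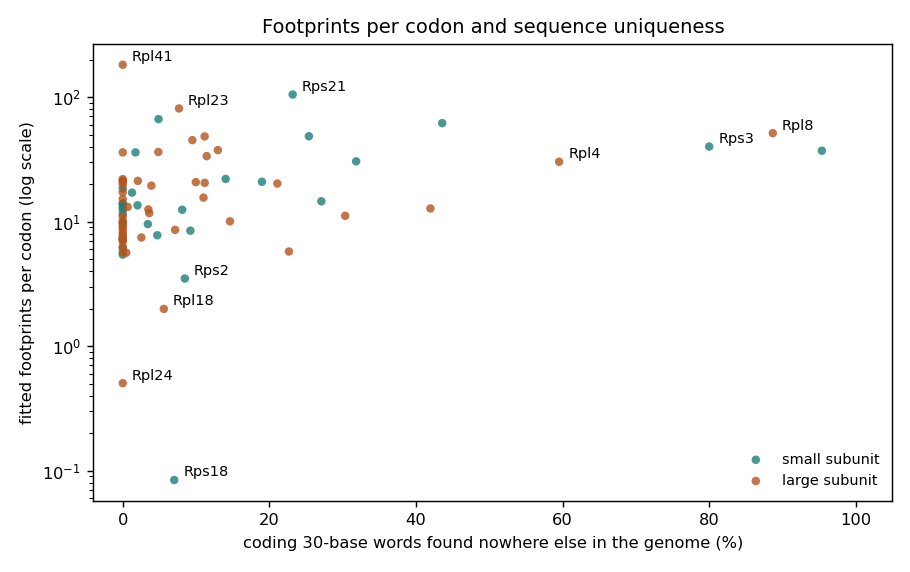
Fitted footprints per codon (vertical axis, log scale) against the percent of coding 30-base words that occur nowhere else in the genome (horizontal axis), 1 point per member, coloured by subunit. The 4 members with at least 50% unique words lie between 30.3 and 51.4, and the 32 members at 0% spread from 0.504 to 182.

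Few footprints were assigned to the pseudogenes that are named after a ribosomal protein. The table lists 178 pseudogenes named after a ribosomal protein, and 53 members have at least 1 of them. Only Rps13-ps1 passed the minimum, with a fitted mean of 814, and the highest of the others was 4.89. Rps13-ps1 had levels of 802 in GFP, 710 in GFP-TTP against 829 in GFP-TTP-AA, while Rps13 itself had a fitted mean of 924. These 178 pseudogenes together amounted to 0.261% to 0.488% of the members' footprints in a library, and pseudogenes under other names were not counted. Of the 23 members without such a named pseudogene, 1 passed in GFP-TTP against GFP and 1 in GFP-TTP-AA against GFP-TTP, and it was Rpl7 both times. Rpl7 still shares sequence with other places, since 11.0% of its 30-base words are unique and a word had a median of 3 other places.

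Of 13 listed genes for ribosomal proteins outside the symbol rule and for paralogs 10 had a fitted mean of at least 10. Fau, Gnb2l1 and Rps3a1 had values between -0.28 and 0.03 in the comparisons with GFP, and none of them passed in any comparison. Rps4l, a paralog of the X-linked Rps4x, had few footprints, with levels of 6.58 in GFP, 6.12 in GFP-TTP against 21.0 in GFP-TTP-AA. Its fitted mean of 11.3 passed the minimum of 10 only through the GFP-TTP-AA libraries, so that it had to be higher there. Its log2 differences of 1.67 (SE 0.24) in GFP-TTP-AA against GFP and 1.78 (SE 0.24) against GFP-TTP are given as a description.

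Genes that work with the ribosomal proteins were compared as lists. Of 13 other TOP mRNAs, 1 passed in GFP-TTP against GFP (7.69%, beside 2.09% of all genes tested and 0.805% that passed as higher). It was the elongation factor subunit Eef1g, which rose by 0.56 (SE 0.12, adjusted p = 0.000643). The list's median was 0.11, beside 0.05 for the members. In GFP-TTP-AA against GFP-TTP its median was -0.20, and 2 passed, both lower (15.4%, beside 10.2% of all genes tested and 4.58% that passed as lower). Eef1g fell by 0.44 (SE 0.12, adjusted p = 0.00667) and the poly(A)-binding protein gene Pabpc1 by 0.67 (SE 0.17, adjusted p = 0.00213) on the log2 scale. Of 30 ribosome biogenesis genes, 2 passed in GFP-TTP against GFP, both higher (6.67%). Of all genes tested 2.09% passed there, and 0.805% passed as higher. At an unadjusted p under 0.05 there were 11 (36.7%, beside 11.3% of all genes tested and 18.1% of the genes of high fitted mean). The 2 that passed were the nucleolar protein genes Ncl, at 0.61 (SE 0.12, adjusted p = 6.55e-05), and Nolc1, at 0.51 (SE 0.13, adjusted p = 0.00648). The list had a median of 0.15, with 23 of 30 above 0. For GFP-TTP-AA against GFP-TTP its median was -0.16, and 3 genes passed, all of them lower (10.0%). Of all genes tested 10.2% passed there, and 4.58% passed as lower. The 3 genes were Ncl with -0.65, the nucleolar chaperone Npm1 with -0.58 and the rRNA transcription factor Ubtf with -0.46 (adjusted p = 0.04995, just under the threshold). Of the 30 genes 0 passed in GFP-TTP-AA against GFP by this test, beside 3.03% of all genes tested. At an unadjusted p under 0.05 there was 1 (3.33%, beside 14.2%).

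Of 16 genes of mTOR signalling and TOP regulation, 0 passed in GFP-TTP against GFP, beside 2.09% of all genes tested. At an unadjusted p under 0.05 there was 1 (6.25%, beside 11.3%). In GFP-TTP-AA 2 passed against GFP (12.5%, beside 3.03% of all genes tested) and 3 against GFP-TTP (18.8%, beside 10.2%). All of these were lower, and of all genes tested 1.27% and 4.58% passed as lower in these comparisons. Larp1, whose product binds the TOP tract and the cap, had levels of 788 in GFP, 909 in GFP-TTP against 551 in GFP-TTP-AA. It fell by 0.52 (SE 0.14, adjusted p = 0.0118) in GFP-TTP-AA against GFP and by 0.72 (SE 0.14, adjusted p = 1.31e-05) against GFP-TTP on the log2 scale. Larp4, which binds the poly(A) tail, fell by 0.50 (adjusted p = 0.0297) and by 0.67 (adjusted p = 0.000239) in the same comparisons. Pdcd4, an inhibitor of translation initiation, fell by 0.57 (adjusted p = 0.0132) against GFP-TTP. The genes Mtor, Rptor, Rps6kb1 and Eif4ebp1 did not pass in any comparison.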

How the data were processed

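Ribosome-protected fragments of TTP-deficient immortalized BMDMs were sequenced by the authors in 9 libraries, 3 per condition. Per the labels, Trim Galore, TopHat2 2.0.12, HTSeq and DESeq2 1.6.3 were used with GRCm38/mm10. The paper's methods give up to 2 alignments per read and a model of library date and condition. The deposited signal per gene and library, named as normalized counts, was checked: condition and replicate terms left a residual SD of 1.66e-15 in its log2 values, so that it holds fitted values. It has 16932 lines for 16921 genes, 11 of them repeats. The authors' deposited comparison tables hold a signal (the mean normalized count), log2 fold changes with their SE, Wald statistics and p-values. Only the mean and the SE on the log2 scale were used here.

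Size factors were recovered from genes whose mean fitted value lay under 0.2. Levels are fitted values divided by them, and group levels are geometric means over the 3 libraries. Genes reaching a mean of 10 were kept (10103), and those with an SE in the comparison were tested. Fold changes were divided by the SE, and two-sided normal p-values were adjusted by Benjamini-Hochberg at 0.05. Tests over samples need replicate spread, which fitted values lack, and were not run. Library depth in reads is not known from these values and acts through the SE. The labels do not say whether libraries came from separate cultures, so that the spread behind the SE may be technical.

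Coding lengths, 3′UTRs and positions came from GENCODE vM21, with 1 transcript per gene, and 30-base words were searched on both strands of GRCm38. The genes named were members past the threshold, the 3 highest and 3 lowest members per subunit and comparison, members with set roles, the 3 extremes of footprints per codon per subunit, and up to 4 passing genes of each other list per comparison. Mtor, Rptor, Rps6kb1, Eif4ebp1, Rps13-ps1, members near the threshold and the replicate extremes were added after their values were seen. A few genes that the rule or the lists hold are not reported here by name. The members and lists were chosen with earlier results of these data known. Alternatives were other filters, scalings, adjustments and member sets. The steps were tested on simulated data and run in Python 3.11.15 with numpy 2.4.6, pandas 2.3.3, scipy 1.17.1 and statsmodels 0.14.6.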

Additional observations from a re-analysis of the deposited data

How the results depend on the processing

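The alternatives were no filter, a fitted mean of at least 50, division by the footprints outside the members, centring on the median of all kept genes, subtraction of chromosome medians, a pseudocount of 10, and other sets of members. The medians have no spread of their own to set a shift against. Over the alternatives the median over all members ranged from 0.03 to 0.11 in GFP-TTP against GFP, from -0.01 to 0.04 in GFP-TTP-AA against GFP, where its sign changed, and from -0.11 to -0.01 in GFP-TTP-AA against GFP-TTP. Leaving out the 53 members with a named pseudogene moved it from 0.05 to 0.11 and from -0.02 to -0.11 in the comparisons with GFP-TTP, and the large-subunit median from 0.05 to 0.15 and from -0.02 to -0.11. The number of members past the threshold fell from 3 to 1 in GFP-TTP against GFP and from 3 to 1 in GFP-TTP-AA against GFP-TTP when the 53 members with a named pseudogene were left out. It also fell to 1 in each of these comparisons when only the 21 members with at least 10% unique words were used, a set chosen after seeing the data. Rpl7 was the member that passed each time, and it too shares most of its words with other places in the genome (11.0% unique). Rps29 no longer passed with chromosome medians subtracted (0.58, adjusted p = 0.0571), and Rps16 passed in GFP-TTP against GFP when the 3 comparisons were adjusted together (adjusted p = 0.0410). Over the settings the adjusted p ranged from 9.35e-05 to 0.000338 for Rpl7, from 0.000980 to 0.00234 for Rpl30 and from 0.0113 to 0.0246 for Rpl15 in GFP-TTP against GFP, from 0.0410 to 0.0759 for Rps16 in the same comparison, and from 0.0136 to 0.0571 for Rps29 in GFP-TTP-AA against GFP-TTP. No paired analysis was possible because the values are fitted and the replicate number is already a term of the authors' model, and for the same reason no library could be left out.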
